A study of Homo sapiens with 4 samples.

Results

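The expression of 43 cell cycle genes, 22 of DNA replication and 21 of mitosis, was examined in MDA-MB-231 cells transfected with a miR-217 mimic. The genes were chosen by name from the 32955 genes of the table, as members of the 2 processes, with earlier results of these data known. All 43 had a mean RPKM (reads on a gene scaled by its exon length and by the reads counted in the library) of at least 1 over the libraries, as did 13871 genes in all. MDA-MB-231 is an established line of human breast cancer cells without the estrogen receptor. RNA-seq was performed on 4 libraries, 2 from cells transfected with mimic NC, a negative control oligonucleotide, and 2 from cells given miR-217 mimic, a synthetic RNA that acts as the microRNA miR-217. All cells were cultured in DMEM with fetal bovine serum, and the time from transfection to harvest is not given in the labels. Each group has a library numbered 1 and a library numbered 2, and the labels do not state what a number marks or whether the libraries came from separate cultures. The p-values below therefore measure only the spread between these libraries, which may be technical.

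The libraries held 57933183 and 47374957 reads on genes for mimic NC numbers 1 and 2, and 53356283 and 32635814 for miR-217 mimic numbers 1 and 2. A member had between 458 and 82000 reads in a library, so that counting error was larger, relative to the level, in members with few reads such as GINS1. The line's label was compared with marker genes. VIM was at 27.9 to 36.9 RPKM, while ESR1, which encodes the estrogen receptor, was at most at 0.0756 RPKM, and GATA3, KRT5 and KRT14 were each below 0.104 RPKM in every library. VIM shares 24.4% of its exon bases with genes on the other strand, so that its value is less certain. Of the luminal markers, EPCAM was nevertheless at 3.90 to 7.41 RPKM. Of the members, 30 shared no exon base with another gene of the table, and 5 shared more than 10% (CCNE2, TYMS, FOXM1, PLK1 and BUB1B). The values of these 5 are less certain, since BUB1B shares its bases with a readthrough transcript on the same strand and the others with genes on the other strand, and whether the counting used the strand is not given.

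Replication and mitosis genes are switched on in successive waves of the cell cycle. Toward the end of G1, E2F factors turn on the genes that load and fire the replicative helicase, copy DNA and make its building blocks. From S phase into G2, the MuvB complex together with B-MYB (MYBL2) and FOXM1 turns on the genes that drive cells into mitosis and separate the chromosomes. Promoters of the first kind often hold an E2F element, and promoters of the second kind often hold a cell cycle homology region (CHR) near the start of transcription, with CCAAT boxes upstream of it. Because both waves are shut in cells that leave the cycle, these genes are widely read as markers of growth.

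Promoters from RefSeq (GRCh38.p14, 250 bases before to 50 bases after the start) were matched by symbol to 19 of the 22 replication genes and 17 of the 21 mitosis genes. The first listed promoter of each symbol was taken, and other starts of a gene were not searched. The elements searched were TTTGGCGC or TTTCGCGC (E2F), TTTGAA or TTTAAA (CHR) and CCAAT, each on both strands. A CHR sequence stood in 14 of 17 mitosis promoters (82.4%) and in 3 of 19 replication promoters (15.8%), compared with 15.7% of 8350 promoters of tested genes and 24.3% of all 27305 promoters. An E2F sequence stood in 7 of 19 replication promoters (36.8%) and in 1 of 17 mitosis promoters (5.88%), that of CDK1, compared with 2.12% of tested genes and 1.18% of all promoters. In the promoters of other genes of these processes, listed further on, the E2F share was lower, at 15% of 40 replication promoters, and the CHR share was 76.9% of 52 mitosis promoters. CCAAT was common in both sets, at 68.4% and 88.2%, against 37.5% of tested genes and 35.7% of all. A match is a match of letters and not a site shown to be bound, and elements spelled with other letters were not counted or marked. The following stretches, from 110 bases before to 20 bases after the start and read 5′ to 3′ on the gene's strand, show the elements in 2 replication genes and in 4 mitosis genes whose values are described below. Capitals mark the E2F, CHR and CCAAT letters, where ATTGG is CCAAT on the other strand and neighbouring elements can overlap.
CDC6 (chr17:40287769-40287898, plus strand): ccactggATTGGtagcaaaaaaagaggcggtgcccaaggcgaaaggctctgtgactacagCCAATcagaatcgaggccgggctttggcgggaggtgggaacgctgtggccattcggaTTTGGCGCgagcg
MCM7 (chr7:100101378-100101507, minus strand): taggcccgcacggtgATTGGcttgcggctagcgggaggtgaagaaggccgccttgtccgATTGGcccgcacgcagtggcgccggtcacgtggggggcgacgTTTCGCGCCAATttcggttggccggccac
CCNB1 (chr5:69167040-69167169, plus strand): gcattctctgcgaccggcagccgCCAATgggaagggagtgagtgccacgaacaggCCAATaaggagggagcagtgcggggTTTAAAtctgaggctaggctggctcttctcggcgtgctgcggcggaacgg
KIF20A (chr5:138179002-138179131, plus strand): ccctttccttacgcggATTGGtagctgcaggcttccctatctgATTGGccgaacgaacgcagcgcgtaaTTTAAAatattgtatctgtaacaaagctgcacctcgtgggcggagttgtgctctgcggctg
MKI67 (chr10:128126404-128126533, minus strand): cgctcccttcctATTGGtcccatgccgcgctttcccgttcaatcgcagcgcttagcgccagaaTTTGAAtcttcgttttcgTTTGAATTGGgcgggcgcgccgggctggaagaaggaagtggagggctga
PTTG1 (chr5:160421745-160421874, plus strand): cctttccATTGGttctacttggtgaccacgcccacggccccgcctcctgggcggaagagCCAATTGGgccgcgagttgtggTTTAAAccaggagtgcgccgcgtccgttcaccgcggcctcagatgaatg
In CDC6 and MCM7 the E2F letters lie within a few bases of the start, and in the 4 mitosis genes the CHR letters lie shortly upstream of it, with 1 or more CCAAT boxes further upstream.

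**Figure D1:**
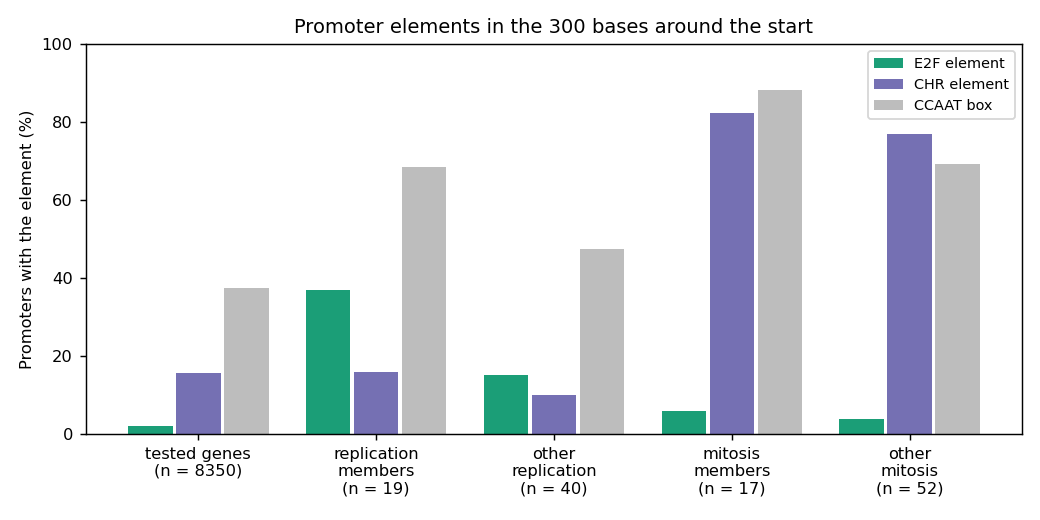
Share of promoters (y axis, percent, from 0) that hold an E2F, a CHR or a CCAAT sequence in the promoter window around the start, for all tested genes and for the replication and mitosis genes (x axis, with the number of promoters). CHR letters were in 82.4% of the mitosis members and 76.9% of other mitosis genes, against 15.8% of the replication members and 15.7% of tested genes, and E2F letters were in 36.8% of the replication members and 15% of other replication genes against 2.12% of tested genes.

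All 43 genes were expressed in every library. Among replication genes, the level ran from GINS1, a subunit of the replicative helicase complex, at 3.45 to 4.35 RPKM, to MCM3, a subunit of the MCM helicase, at 142.7 to 150.9 RPKM. Among mitosis genes, it ran from MAD2L1, a spindle checkpoint protein, at 4.855 to 5.892 RPKM, to TPX2, which activates Aurora A on the spindle, at 131.6 to 187.4 RPKM. The median replication gene was at 25.3 and 23.7 RPKM in mimic NC numbers 1 and 2 and at 26.96 and 24.82 RPKM with miR-217 mimic. The median mitosis gene was at 24.5 and 17.6 RPKM with mimic NC and at 26.6 and 19.3 RPKM with miR-217 mimic. Both sets were thus lowest in mimic NC number 2, and the mitosis genes varied more between libraries than the replication genes.

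**Figure D2:**
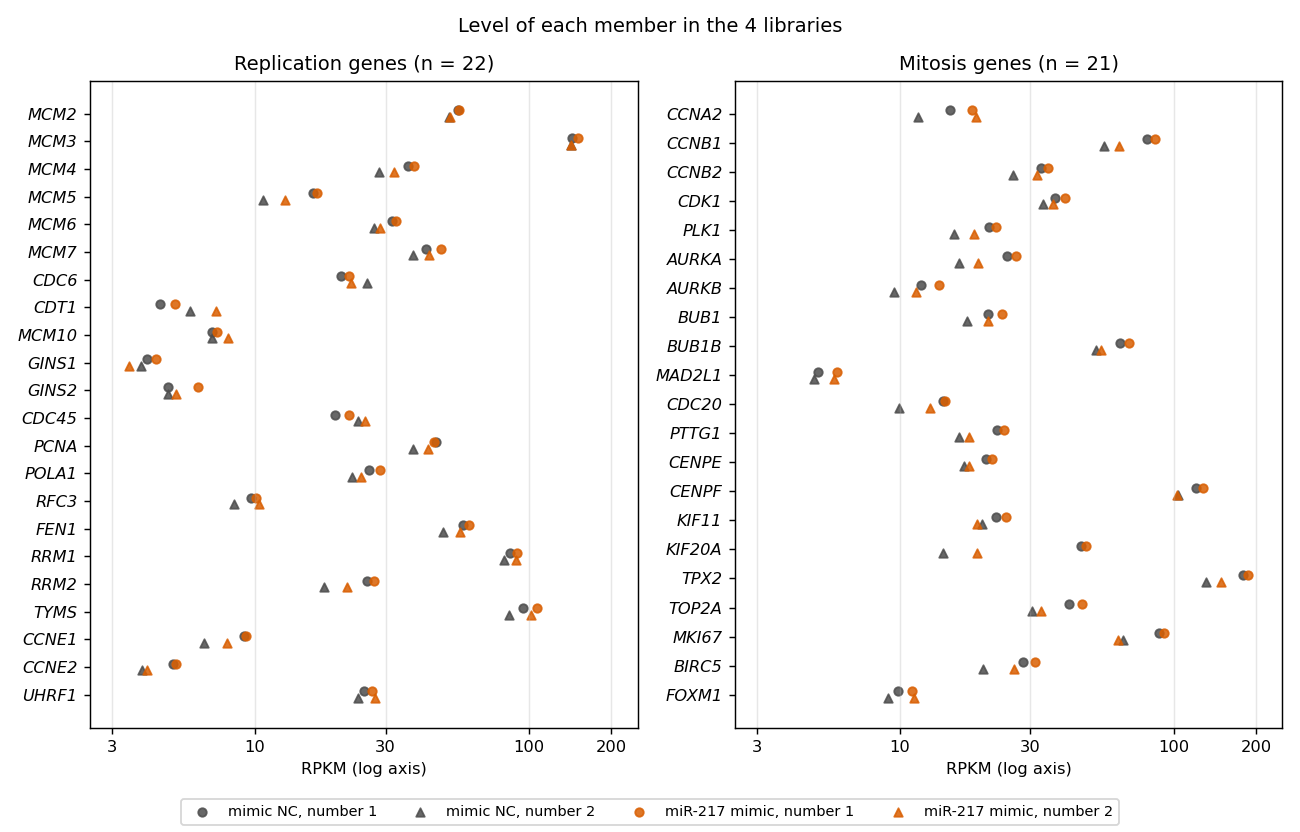
RPKM (x axis, log scale) of each replication gene (left) and each mitosis gene (right) in the 4 libraries, in grey with mimic NC and in orange with miR-217 mimic, with circles for number 1 and triangles for number 2. In most mitosis genes both triangles lie left of both circles, most widely in KIF20A, at 14.3 and 19.1 against 45.8 and 47.9 RPKM.

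Replication was first set against mitosis within each library, as the difference between the mean log2(RPKM + 1) of the 22 genes and that of the 21 genes. The mean of the replication genes was 4.54 and 4.40 in mimic NC numbers 1 and 2, and 4.63 and 4.54 in those of miR-217 mimic. The mean of the mitosis genes was 4.96 and 4.57 in mimic NC and 5.08 and 4.77 in miR-217 mimic. The replication genes thus spread over less than the mitosis genes did, and the order of the libraries was the same in both sets, from miR-217 mimic number 1 down to mimic NC number 2. The difference, replication minus mitosis, was -0.42 and -0.17 in mimic NC numbers 1 and 2 and -0.45 and -0.23 in miR-217 mimic numbers 1 and 2. The libraries numbered 2 lay above the libraries numbered 1, and the mimic groups overlapped. Between the groups the difference was -0.30 ± 0.18 (SD, n = 2) for mimic NC and -0.34 ± 0.15 (SD, n = 2) for miR-217 mimic, so that it moved by -0.04, less than the spread between libraries of a group. Between the numbers it was -0.44 ± 0.02 (SD, n = 2) and -0.20 ± 0.05 (SD, n = 2), so that it moved by 0.23, by 0.26 with mimic NC and by 0.21 with miR-217 mimic. With 2 libraries a side, the smallest two-sided p of an exact permutation test is 0.333, and none is given for these means. The move between the numbers was 0.18 without KIF20A and 0.35 when the median over genes replaced the mean.

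In shares of reads, the replication genes took 0.302% and 0.274% of the reads on genes in mimic NC and 0.321% and 0.298% in miR-217 mimic. The mitosis genes took 0.530% and 0.410% in mimic NC and 0.564% and 0.433% in miR-217 mimic. In both groups the library numbered 2 had the lower share of each set, and the gap between the numbers was wider for the mitosis genes.

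**Figure D3:**
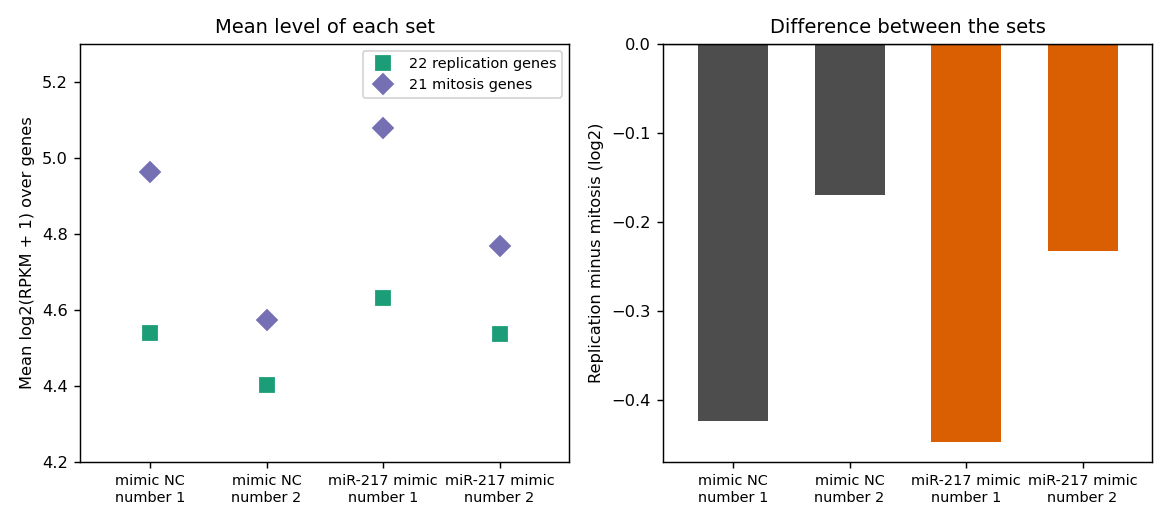
Left, mean log2(RPKM + 1) of the 22 replication genes (squares) and 21 mitosis genes (diamonds) in each of the 4 libraries (x axis). Right, replication minus mitosis in each library (log2, bars from 0), at -0.42 and -0.45 in the libraries numbered 1 and at -0.17 and -0.23 in those numbered 2.

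The comparison of the design, miR-217 mimic against mimic NC, asks how the mimic changes mRNA levels. Most of the members were slightly higher with miR-217 mimic, by amounts within the spread between libraries. That spread includes the difference between the numbers, which the test below did not take into account. Of the replication genes 20 of 22 were higher, with a median difference of 0.12 in log2(RPKM + 1) and a range of -0.05 to 0.22. All 21 mitosis genes were higher, with a median of 0.15 and a range of 0.00 to 0.46. Over all 13871 tested genes the median was -0.02, and 44.4% were higher. The medians within number 1 and within number 2 were 0.08 and 0.17 for the replication genes and 0.11 and 0.20 for the mitosis genes. Within both numbers 37 of 43 members were higher, compared with 3523 of 13871 tested genes. Since transcripts that rise and fall together are not independent, the number of members that lean one way is not a count of separate observations.

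By limma's moderated test, 0 of 13871 genes (0%), and thus 0 members, passed at a Benjamini-Hochberg adjusted p under 0.05. At an unadjusted p under 0.05, 67 genes (0.483%) were higher and 98 (0.707%) were lower with miR-217 mimic, among them 0 of 22 replication genes and 1 of 21 mitosis genes, CCNA2. With limma voom on the recovered reads, 0 genes passed at an adjusted p and 82 at an unadjusted p. Neither fit had a term for the number, so that the standard errors include the difference between the numbers. With a replicate block in limma, 1046 genes had an unadjusted p under 0.05, among them 2 replication genes and 5 mitosis genes. At an adjusted p, 0 genes passed with the block. The labels do not show that same-numbered libraries are pairs. Both miR-217 mimic libraries lay above both mimic NC libraries in 9.72% of tested genes and below both in 13.5%. They lay above in 7 replication genes (MCM7, MCM10, GINS2, RFC3, RRM1, TYMS and UHRF1) and in 3 mitosis genes (CCNA2, MAD2L1 and FOXM1), and below in 0 members. The share was 31.8% of the replication genes and 14.3% of the mitosis genes.

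Both medians were positive within each number, but they shifted when single libraries were left out. The median of the mitosis genes was -0.055 without mimic NC replicate 2 and -0.047 without miR-217 mimic replicate 1, each of which leaves 1 library in a group, so that the numbers no longer balance. That of the replication genes was 0.03 in both of these fits. CCNA2 kept an unadjusted p under 0.05 in 1 of the 4 fits that each left out a library, the one without mimic NC replicate 1.

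CCNA2 encodes cyclin A2, which acts with CDK2 in S phase and with CDK1 at the entry into mitosis, and it lies on GRCh38 chr4:121816444-121823933, minus strand. CCNA2 was at 15.3 and 11.6 RPKM with mimic NC and at 18.3 and 19.0 RPKM with miR-217 mimic. Both miR-217 mimic libraries were above both mimic NC libraries, by 0.25 within number 1 and 0.66 within number 2. In limma its difference was 0.46 (SE 0.16, adjusted p = 1.0), the largest among the members, but it failed the correction over all genes. Of its exon bases 9.08% are shared with EXOSC9 on the other strand.

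Other members of the mitotic engine moved less. CCNB1, the cyclin that activates CDK1 for mitosis, was at 79.8 and 55.5 RPKM with mimic NC and at 85.2 and 63.1 RPKM with miR-217 mimic. CDK1 was at 36.9 and 33.3 RPKM with mimic NC and at 40.2 and 36.3 RPKM with miR-217 mimic. In both genes each number 1 library was above each number 2 library, so that the groups overlapped, and the limma difference was 0.14 (SE 0.25) and 0.12 (SE 0.13). MKI67, which encodes the proliferation marker Ki-67, was at 88.2 and 65.5 RPKM with mimic NC and at 92.3 and 62.7 RPKM with miR-217 mimic. Its group means were 76.83 ± 16.01 and 77.48 ± 20.95 RPKM (SD, n = 2), a difference of 0.00 (SE 0.25). BIRC5, or survivin, a subunit of the chromosomal passenger complex, was at 28.2 and 20.03 RPKM with mimic NC and at 31.1 and 26.05 RPKM with miR-217 mimic. Its difference was 0.25 (SE 0.21), and the groups overlapped. The smallest differences among mitosis genes after MKI67 were those of KIF11, a spindle motor, and CENPF, a kinetochore protein. KIF11 was at 22.5 and 20.02 RPKM with mimic NC and at 24.3 and 19.2 RPKM with miR-217 mimic, a difference of 0.02 (SE 0.16). CENPF was at 121.1 and 103.9 RPKM with mimic NC and at 128.2 and 102.97 RPKM with miR-217 mimic, a difference of 0.03 (SE 0.17). In both genes the miR-217 mimic library was higher within number 1 and lower within number 2.

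Among replication genes, TYMS, which makes thymidylate, was at 95.4 and 84.9 RPKM with mimic NC and at 107.6 and 102.3 RPKM with miR-217 mimic. The groups did not overlap, and its difference was the largest of the set at 0.22 (SE 0.13). CDT1, which loads the MCM helicase with CDC6, was at 4.48 and 5.78 RPKM with mimic NC and at 5.08 and 7.19 RPKM with miR-217 mimic, with a difference of 0.21 (SE 0.20). GINS2, a subunit of the GINS complex, was at 4.80 and 4.82 RPKM with mimic NC and at 6.18 and 5.14 RPKM with miR-217 mimic. Its difference was 0.19 (SE 0.13) without overlap. The MCM subunit MCM2 was at 55.2 and 51.1 RPKM with mimic NC and at 55.5 and 51.7 RPKM with miR-217 mimic, and its difference of 0.01 (SE 0.13) was close to 0. PCNA, the sliding clamp of the DNA polymerases, was at 45.8 and 37.8 RPKM with mimic NC and at 45.2 and 42.8 RPKM with miR-217 mimic. PCNA overlapped between the groups, at 0.08 (SE 0.15). CCNE2, a cyclin E that opens S phase, was at 4.99 and 3.86 RPKM with mimic NC and at 5.15 and 4.03 RPKM with miR-217 mimic, and it differed by 0.04 (SE 0.17) with overlap.

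The 2 members with a negative difference were CDC6 and GINS1. CDC6 was at 20.6 and 25.8 RPKM with mimic NC and at 22.1 and 22.4 RPKM with miR-217 mimic, a difference of -0.05 (SE 0.15) with overlap. GINS1 was at 4.04 and 3.84 RPKM with mimic NC and at 4.35 and 3.45 RPKM with miR-217 mimic, at -0.02 (SE 0.14), and its sign turned to 0.01 when each library was centred on its median. By role, the median difference in the replication set was 0.09 for the 8 helicase loading genes, 0.12 for the 4 helicase activation genes, 0.13 for the 4 DNA synthesis genes and 0.17 for the 3 nucleotide supply genes. In the mitosis set it was 0.16 for the mitotic cyclins and CDK1, 0.17 for the 3 mitotic kinases, 0.20 for the 3 spindle checkpoint genes and 0.06 for the 5 kinetochore, motor and spindle genes. The medians of the roles lay within 0.06 to 0.20, which is about the standard error of a single gene.

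**Figure D4:**
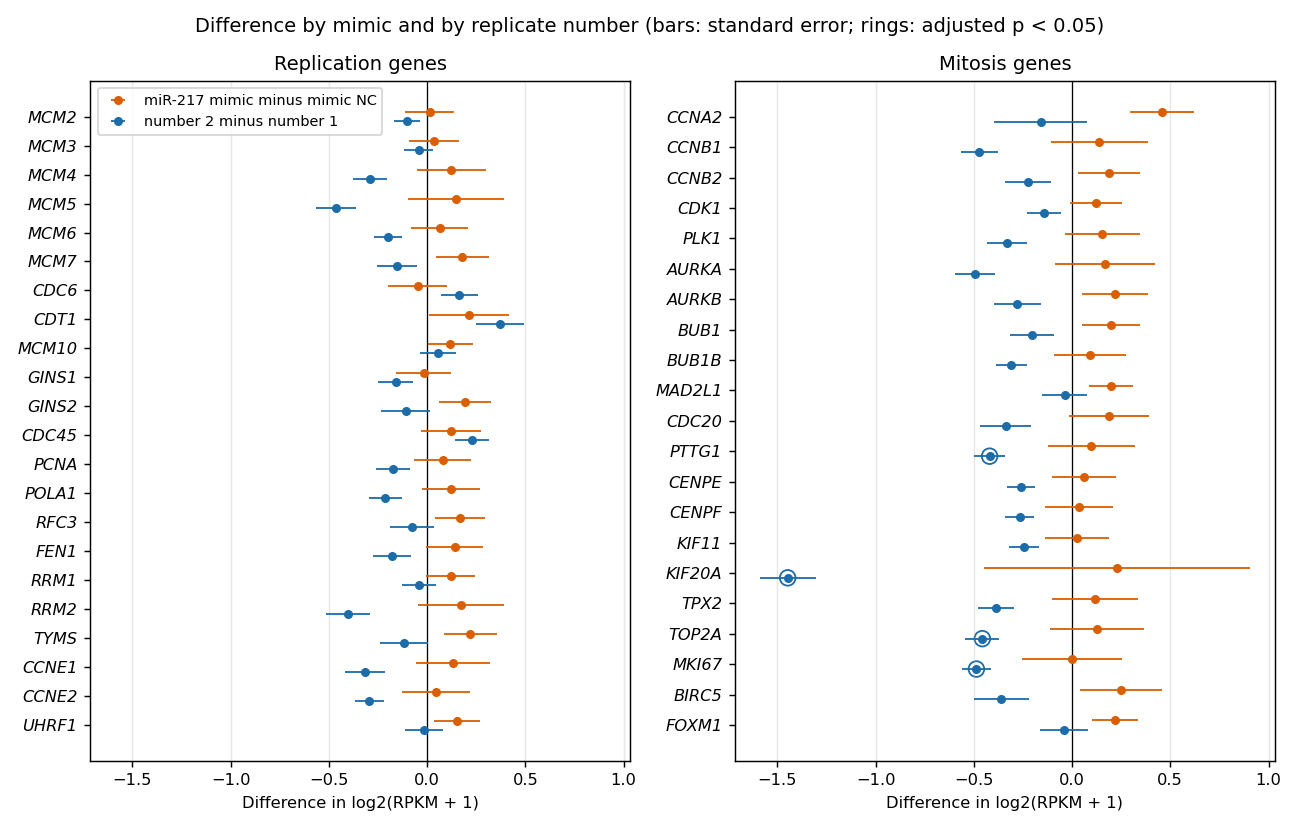
Difference in log2(RPKM + 1) of each replication gene (left) and mitosis gene (right), with orange points for miR-217 mimic minus mimic NC and blue points for number 2 minus number 1. Bars are the standard error in limma and rings mark an adjusted p under 0.05. The orange points lie between -0.05 and 0.46 with bars that mostly reach 0, and the blue points of the mitosis genes all lie left of 0, down to -1.45 in KIF20A.

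The replicate numbers were then compared, libraries numbered 2 against those numbered 1. The mitosis genes were lower in number 2 throughout, with a median difference of -0.31 and a range of -1.45 to -0.04, and 21 of 21 were lower. The replication genes were lower by less, with a median of -0.14 and a range of -0.47 to 0.37, and 18 of 22 were lower. Over all tested genes the median was -0.04, and 44.2% were higher. The medians were similar in the 2 groups of libraries, at -0.37 with mimic NC and -0.27 with miR-217 mimic for the mitosis genes, and at -0.16 and -0.11 for the replication genes. In bulk RNA, fewer cells in a phase of the cycle and less of these transcripts per cell cannot be told apart.

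In limma, 977 of 13871 genes (7.04%) had an adjusted p under 0.05 between the numbers, among them 4 of 21 mitosis genes (KIF20A, MKI67, PTTG1 and TOP2A) and 0 of 22 replication genes. By voom on the recovered reads, the counts were 2262 genes in all, 11 mitosis genes and 3 replication genes. At an unadjusted p under 0.05, 12.8% of tested genes were higher and 17.4% were lower. Of the mitosis genes 14 were lower and 0 were higher, and of the replication genes 6 were lower (MCM4, MCM5, MCM6, RRM2, CCNE1 and CCNE2) and 2 were higher (CDT1 and CDC45). Both libraries numbered 2 lay below both numbered 1 in 18 mitosis genes (85.7%) and 12 replication genes (54.5%), compared with 35.5% of tested genes. They lay above both in 0 mitosis genes and 3 replication genes (CDC6, CDT1 and CDC45), compared with 26.9% of tested genes. Whether the sets differed in these shares was not tested. The number of calls at an adjusted p rested on single libraries. It fell, over all genes and in the mitosis genes, when either library numbered 1 was left out. It rose in both when either library numbered 2 was left out. Each of these fits leaves 1 library under a number. With genes of low values kept in the fit of all libraries, 3 genes and 0 members had an adjusted p under 0.05.

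Within each group, the library numbered 2 was the one with fewer reads. Marker genes of the line also moved, since MSN was at 156.7 and 93.5 RPKM with mimic NC and at 154.1 and 104.0 RPKM with miR-217 mimic, and CD44 was at 13.5 and 17.3 RPKM and at 14.6 and 25.96 RPKM. Of the other 3 markers on that list, CAV1 was lower in both libraries numbered 2, AXL was higher in both, and VIM overlapped. Over all tested genes, the numbers were separated along a first principal component with 71.3% of the variance. The part of depth and of these other differences in the values below was not tested.

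KIF20A, a kinesin of the central spindle that is needed for cytokinesis, differed most. It lies on GRCh38 chr5:138178719-138187715, plus strand, and 5.05% of its exon bases are shared with BRD8 and CDC23 on the other strand. KIF20A was at 45.8 RPKM in mimic NC number 1 and 14.3 RPKM in number 2, and at 47.9 and 19.1 RPKM in miR-217 mimic numbers 1 and 2. Both libraries numbered 1 were far above both numbered 2, by 2.80-fold on average in RPKM. Within number 1 the miR-217 mimic library was higher by 0.07 and within number 2 by 0.39, and the limma difference between the groups was 0.23 (SE 0.68), the third largest of the mitosis genes, with overlap. Between the numbers its difference in limma was -1.45 (SE 0.14, adjusted p = 0.0181), -1.61 with mimic NC and -1.28 with miR-217 mimic. The adjusted p was 0.104 without mimic NC replicate 1, 0.0925 without miR-217 mimic replicate 1 and 0.109 with low genes kept, and the difference stayed between -1.64 and -1.25 when single libraries were left out.

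MKI67 had the next largest effect for its error. Its libraries numbered 1 were at 88.2 and 92.3 RPKM and those numbered 2 at 65.5 and 62.7 RPKM, for mimic NC and miR-217 mimic in turn. The numbers did not overlap, and the difference was -0.49 (SE 0.07, adjusted p = 0.0339), with an adjusted p of 0.250 without mimic NC replicate 1 and 0.270 without miR-217 mimic replicate 1. PTTG1, or securin, which holds separase inactive until anaphase, was at 22.6 and 24.0 RPKM in number 1 and at 16.5 and 17.9 RPKM in number 2. TOP2A, the topoisomerase that untangles sister chromatids, was at 41.5 and 46.2 RPKM in number 1 and at 30.5 and 32.8 RPKM in number 2. Both genes were lower in each library numbered 2, and their adjusted p of 0.0489 and 0.0496 stood just inside the threshold, at differences of -0.42 (SE 0.08) and -0.46 (SE 0.09).

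Just outside the threshold were the cyclin CCNB1 and the kinase AURKA, which matures the spindle poles. CCNB1 was at 79.8 and 85.2 RPKM in number 1 and at 55.5 and 63.1 RPKM in number 2, a difference of -0.47 (SE 0.09, adjusted p = 0.0519). AURKA was at 24.5 and 26.6 RPKM in number 1 and at 16.5 and 19.3 RPKM in number 2, a difference of -0.50 (SE 0.10, adjusted p = 0.0554). These values were of the size of those that passed. The spindle checkpoint gene MAD2L1 and the transcription factor FOXM1, which turns on mitosis genes, differed least. MAD2L1 was at 5.01 and 5.89 RPKM in number 1 and at 4.855 and 5.72 RPKM in number 2, a difference of -0.04 (SE 0.11). FOXM1 was at 9.81 and 11.06 RPKM in number 1 and at 9.07 and 11.23 RPKM in number 2, a difference of -0.04 (SE 0.12). In both genes the numbers overlapped. CDK1 differed by -0.14 (SE 0.08). CCNA2, at -0.37 with mimic NC and 0.05 with miR-217 mimic, also overlapped between the numbers. By role, the median was lowest for the group of TOP2A, MKI67, BIRC5 and FOXM1 at -0.41, followed by anaphase control (CDC20 and PTTG1) at -0.38 and the mitotic kinases at -0.33, and it was nearest to 0 for the mitotic cyclins with CDK1 at -0.19.

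Replication genes went both ways. MCM5, a subunit of the helicase, was at 16.3 and 16.9 RPKM in number 1 and at 10.7 and 12.8 RPKM in number 2. RRM2, the regulated subunit of ribonucleotide reductase, was at 25.7 and 27.1 RPKM in number 1 and at 17.9 and 21.8 RPKM in number 2. Neither gene overlapped, and the differences were -0.47 (SE 0.10, adjusted p = 0.0623) and -0.40 (SE 0.11, adjusted p = 0.0905). Its partner RRM1 differed by only -0.04 (SE 0.09). CCNE1, the other cyclin E, was at 9.09 and 9.27 RPKM in number 1 and at 6.53 and 7.87 RPKM in number 2, with a difference of -0.32 (SE 0.10, adjusted p = 0.119), and CCNE2 differed by -0.30 (SE 0.07, adjusted p = 0.0780). The 6 MCM subunits ranged widely, since MCM3 differed by -0.04, MCM2 by -0.10, MCM7 by -0.15, MCM6 by -0.20, MCM4 by -0.29 and MCM5 by -0.47.

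The helicase loading factors CDT1 and CDC6 and the helicase subunit CDC45 were higher in number 2. CDT1 was at 4.48 and 5.08 RPKM in number 1 and at 5.78 and 7.19 RPKM in number 2. CDC45 was at 19.67 and 21.995 RPKM in number 1 and at 23.7 and 25.3 RPKM in number 2. In both genes the libraries numbered 2 were higher in each group, by 0.37 (SE 0.12, adjusted p = 0.125) and 0.23 (SE 0.09, adjusted p = 0.160) in limma. CDC6 was higher by 0.31 with mimic NC and by 0.02 with miR-217 mimic, and its difference of 0.16 (SE 0.09) did not pass at an unadjusted p. PCNA differed by -0.17 (SE 0.09).

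Gene by gene, the differences between the numbers were alike in the 2 groups, which share no library. Across the 43 members Pearson's r between the difference with mimic NC and that with miR-217 mimic was 0.87, and 0.76 without KIF20A, compared with 0.68 across all tested genes. It was 0.78 across the replication genes and 0.87 across the mitosis genes, or 0.56 without KIF20A. The sign was the same in both groups for 37 of 43 members. For the mimic, r between the difference within number 1 and that within number 2 was 0.23 across the members, 0.01 across the replication genes and 0.41 across the mitosis genes, compared with 0.17 across all tested genes. These are descriptions across genes, which are not independent replicates, since the values of every gene come from the same 4 libraries.

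**Figure D5:**
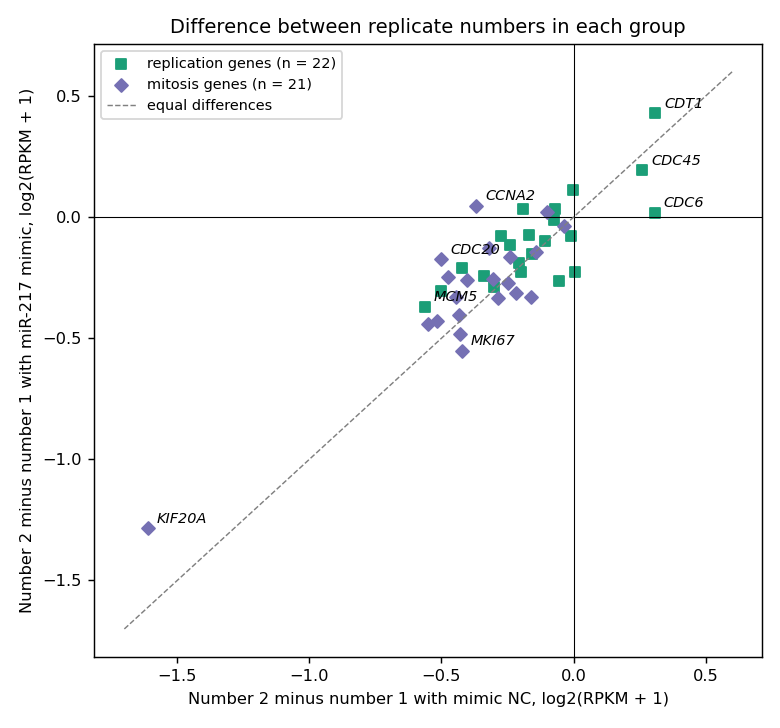
Number 2 minus number 1 in log2(RPKM + 1) with mimic NC (x axis) and with miR-217 mimic (y axis) for the 22 replication genes (squares) and 21 mitosis genes (diamonds), with a dashed line of equal differences. Most genes lie to the lower left, KIF20A at -1.61 and -1.28, and CDT1, CDC45 and CDC6 lie at or above 0 on both axes.

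By promoter letters, the median difference between the numbers was -0.32 for the 14 mitosis genes with a CHR sequence, which include KIF20A, MKI67, PTTG1 and CCNB1 shown above, and -0.20 for the 3 without one (CCNA2, AURKB and BUB1). For the 3 replication genes with a CHR sequence (RRM1, RRM2 and CCNE1) it was -0.32, and for the 16 without one it was -0.11. For the 7 replication genes with an E2F sequence it was -0.15, and for the 12 without one it was -0.09. These groups are small and were not tested against each other. They also depend on the exact letters searched. CCNA2, counted as without a CHR sequence, holds the unsearched letters CTTGAA shortly upstream of the start. Among the 12 counted as without an E2F sequence, CDT1, CDC45 and MCM10 hold the unsearched letters TTTGGCGG, and UHRF1 holds TTTCGCGG. The groups depend on the promoter listed first as well. Its window lies inside the span of the gene in several members, among them AURKB, UHRF1, PLK1, MCM7 and KIF20A.

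Further genes of the same processes were taken from a list of textbook roles. Of 48 other replication genes, 37 were higher with miR-217 mimic (median 0.09), and 2 had an unadjusted p under 0.05, GMNN and RFC5. GMNN, which encodes geminin, the inhibitor of CDT1, was at 29.9 and 25.2 RPKM with mimic NC and at 39.7 and 39.1 RPKM with miR-217 mimic. RFC5, a subunit of the clamp loader, was at 6.97 and 6.27 RPKM with mimic NC and at 8.96 and 9.32 RPKM with miR-217 mimic. Neither overlapped, at 0.51 (SE 0.14, adjusted p = 1.0) and 0.41 (SE 0.12, adjusted p = 1.0). The RPA2 subunit of the single-strand binding protein differed by 0.30 (SE 0.12), and CDK2 by -0.25 (SE 0.16). Of 59 other mitosis genes, 48 were higher (median 0.13) and 0 had an unadjusted p under 0.05, with UBE2C, the ubiquitin-conjugating enzyme of the anaphase-promoting complex, highest at 0.35 (SE 0.16). Of 16 cell cycle transcription factors 12 were higher (median 0.05). MYBL2 was at 115.4 and 118.5 RPKM with mimic NC and at 135.6 and 137.9 RPKM with miR-217 mimic, without overlap, a difference of 0.22 (SE 0.12).

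Between the numbers, 50 of the 59 other mitosis genes were lower in number 2 (median -0.23), with 26 lower and 4 higher at an unadjusted p under 0.05 and 8 lower and 1 higher at an adjusted p. Of the 48 other replication genes 30 were lower (median -0.05), with 9 lower and 2 higher at an unadjusted p under 0.05. ANLN, the cytokinesis scaffold anillin, was at 113.8 and 94.5 RPKM in number 1 and at 58.7 and 50.7 RPKM in number 2. DLGAP5, a spindle protein, was at 32.2 and 34.4 RPKM in number 1 and at 17.1 and 20.8 RPKM in number 2. These were the lowest of the other mitosis genes, at -0.91 (SE 0.13, adjusted p = 0.0326) and -0.79 (SE 0.11, adjusted p = 0.0329), followed by the motor KIFC1 at -0.71 (SE 0.12, adjusted p = 0.0411). The exception at an adjusted p was CDC25B, a phosphatase that activates CDK1, at 9.315 and 9.002 RPKM in number 1 and at 12.03 and 12.64 RPKM in number 2, a difference of 0.39 (SE 0.07, adjusted p = 0.0459). Of the transcription factors 12 of 16 were higher in number 2 (median 0.05), and 0 had an adjusted p under 0.05.

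Sites for the microRNA were located among the members, since the mimic adds miR-217. Its mature sequence from RefSeq (hsa-miR-217-5p, GRCh38.p14 chr2:55983020-55983042, minus strand) is given with the seed, bases 2 to 8, in capitals.
miR-217: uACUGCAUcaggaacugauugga
The matching letters ATGCAGT were in the longest annotated 3′UTR (GENCODE 29) of 2 of 22 replication genes, MCM4 and PCNA, and 0 of 21 mitosis genes, compared with 1440 of 9911 tested genes with such a 3′UTR (14.5%). They were in 6 of the 48 other replication genes (12.5%) and 6 of the 59 other mitosis genes (10.2%). The PCNA site is shown with its flanking bases and the match in capitals, as are the 3 sites of the other replication and mitosis genes that match 8 bases, which are longer by the A that follows the seed match.
PCNA: gactctaaATGCAGTtttaagaat
POLD3: cctccattATGCAGTAcacggaca
ANLN: tacgtattATGCAGTAtttatatc
SMC2: cagaaaacATGCAGTAattgatat
With miR-217 mimic, MCM4 differed by 0.12 (SE 0.18) and PCNA by 0.08 (SE 0.15). ANLN was at 113.8 and 58.7 RPKM with mimic NC and at 94.5 and 50.7 RPKM with miR-217 mimic, which is -0.26 within number 1 and -0.21 within number 2, and its difference of -0.24 (SE 0.44) was smaller than the spread between numbers. It also held a second site of 7 bases. POLD3, a subunit of DNA polymerase delta, differed by -0.09 (SE 0.13) and SMC2, a condensin subunit, by -0.03 (SE 0.12). Of the 12 site-bearing genes of the other replication and other mitosis lists, 6 were higher and 6 were lower with miR-217 mimic. Their median was 0.01 and their range -0.24 to 0.18, and CDC25A was the highest of the 12. Among the cell cycle transcription factors, E2F3 and E2F7 held a site of 7 bases and TFDP2 and LIN9 a site of 8 bases. These genes are not part of that count. Whether any of these sites acts in these cells was not tested.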

How the data were processed

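RNA-seq of MDA-MB-231 cells was deposited as 1 table of RPKM values for 32955 genes in 4 libraries. The submitters' processing notes name hg38, Trimmomatic 0.36, featureCounts, Subread 1.5.1 and edgeR 3.12.1; the aligner and annotation are not given in the sources used here. The authors scaled the deposited RPKM by gene length and by the reads on listed genes, and 100% of nonzero values were whole reads within 0.01, from which reads were recovered. Depth was 32635814 to 57933183 reads on genes.

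Groups and numbers came from the labels. Genes whose mean RPKM reached 1 were tested with limma 3.58.1 (eBayes with trend) in R 4.3.3 on log2(RPKM + 1), two-sided, with Benjamini-Hochberg adjustment and no covariate. Differences are on that scale, which understates changes of low genes. Limma voom on recovered reads called 0 genes for the mimic and 2262 for the number at an adjusted p under 0.05. Also tried were a pseudocount of 0.1, a minimum mean RPKM of 5 or none, median centring, a replicate block or mimic term, and leaving out each library.

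The members and lists were chosen with earlier results of these data known. Full values are given for the 3 lowest and 3 highest members of each set in each comparison, members with an unadjusted p under 0.05 for the mimic, and MCM2, PCNA, CCNE2, CDK1, CCNB1 and MKI67. PTTG1 and TOP2A, the differences of RRM1 and the other MCM subunits, and the promoters shown were chosen after values were seen. From the other lists, the 3 lowest and 3 highest were eligible. Of the listed genes, 2 were matched by an older symbol, and PGR and TFF1 were not analysed here. Plots were made with matplotlib 3.10.9 in Python 3.11.15.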

Additional observations from a re-analysis of the deposited data

How the results depend on the processing

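For miR-217 mimic against mimic NC, the medians of both sets stayed positive under each setting that kept all 4 libraries. Leaving out each library in turn gave a median of 0.026 to 0.19 for the replication genes and -0.055 to 0.34 for the mitosis genes, 0 to 1 mitosis genes and 93 to 866 genes in all at an unadjusted p under 0.05 (1 and 165 with all libraries), and a replication minus mitosis difference of -0.17 to 0.084. The total at an unadjusted p was 877 with no filter, 48 with a minimum mean RPKM of 5 and 82 with voom. Same-numbered libraries deviated together (r = 0.68 across genes), but with 2 pairs and no label for the number this does not show pairing. With the replicate block, 1046 genes, 2 replication genes and 5 mitosis genes had an unadjusted p under 0.05, and with voom and the replicate block 1261, 3 and 8, and 1 gene in all had an adjusted p under 0.05. For number 2 against number 1, genes with an adjusted p under 0.05 (977) numbered 3 with no filter, 2262 with voom, 3280 with voom and a mimic term and 9 to 3931 without single libraries. Mitosis genes (4) numbered 2 with a pseudocount of 0.1 or median centring, 0 with no filter, 7 with a minimum mean RPKM of 5, 11 with voom, 15 with voom and a mimic term and 0 to 11 without single libraries. Replication genes (0) numbered 1 with a minimum mean RPKM of 5 or a mimic term, 3 with voom, 6 with voom and a mimic term and 0 to 4 without single libraries. At an unadjusted p, 4184 genes became 2474 with a minimum mean RPKM of 5 and 1832 to 6037 without single libraries, 8 replication genes became 2 to 13, and 14 mitosis genes became 6 to 18. The medians ran from -0.23 to -0.074 and from -0.44 to -0.24, and replication minus mitosis (0.23) was 0.20 to 0.27 without single libraries, 0.35 as a median over members and 0.18 without KIF20A. Of the 34 genes examined in each comparison, GINS1 turned to 0.0077 under median centring for the mimic, and without single libraries the sign turned in 28 of 136 fits for the mimic and 4 of 136 for the number. The ranges for the mimic were ANLN -0.71 to 0.23, SPC24 -0.41 to 0.20, CDC25C -0.26 to 0.11, CDC6 -0.20 to 0.10, GINS1 -0.15 to 0.11, MCM2 -0.042 to 0.066, MKI67 -0.27 to 0.28, KIF11 -0.14 to 0.19, CENPF -0.12 to 0.19, KIF20A -0.58 to 1.03, LIN54 -0.20 to 0.11, PCNA -0.058 to 0.21, CCNE2 -0.11 to 0.20, CCNB1 -0.12 to 0.40, ORC5 -0.26 to 0.0093 and CDT1 -0.0024 to 0.43, and for the number FOXM1 -0.18 to 0.10 and MAD2L1 -0.14 to 0.062. The causes were not tested. Median over members, leaving out the 5 members that share over 10% of their exon bases and the set without KIF20A were chosen after seeing the data. Depth limits the members with few reads most, at 458 reads or more per library.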
